A study of Mus musculus with 127 samples.

Results

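Poly(A) RNA of the synaptic fraction was compared with poly(A) RNA of the nuclear fraction of the same cortex in 5 mice heterozygous for a germline Chd8 mutation (HET). The 10 libraries were those HET libraries whose animal number appears in both fractions by the library names, which gave 2 female and 3 male pairs. They are 10 of 39 libraries in the table of these fractions and 10 of 127 in the series. Chd8 encodes a chromatin remodelling enzyme, and loss-of-function mutations in the gene are associated with autism.

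Both groups of libraries came from the same animals, so both carried the same genotype, Chd8+/5bpdel, in which 1 allele has a 5 bp deletion in every cell of the body. The mice were about 60 days old; the labels used here give neither strain nor treatment. Frozen cortex was first treated with the Syn-PER reagent, which gave the synaptosome (synaptic) fraction, and the flowthrough was then treated with the NE-PER reagents, which gave the nuclear fraction. Cells were not sorted, and the labels call the material mixed cortical cells. Each pair has 1 batch label in both of its libraries (4 labels over the 5 pairs), so each difference within a pair is also a difference within a batch. Wild-type (WT) littermates and the 6 HET libraries without a partner (2 synaptic, 4 nuclear) enter below only where named.

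A synaptosome is a pinched-off nerve terminal, often with a piece of the postsynaptic membrane, and preparations of this kind also hold mitochondria, glial processes and myelin. Neurons move selected mRNAs into dendrites and axons and translate some of them there, whereas many long noncoding RNAs and incompletely spliced transcripts stay in the nucleus. RNA abundance in the fractions is relative: each library gives shares of its own RNA, not molecules per cell. In unsorted tissue, fewer cells of a type and less RNA per cell cannot be told apart.

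Libraries held 23.2 to 39.0 mega counts (M) in the nuclear and 28.8 to 48.0 M in the synaptic fraction. The first principal component (76.9% of the variance) put all 5 nuclear libraries at −128.8 to −104.9 and all 5 synaptic libraries at 87 to 146.5. The synaptic library of HET female replicate 3 stood apart on the second component (5.4%), at −82.2 against −14.8 to 28.7 for the other 9. Its pair lay far from the remaining 4 in 863 of 18914 tested genes (4.56%), by a gap of over 0.71 of the range of the 5 differences. Each other pair was the far one in 101 to 180 genes. Several results that rest on this pair are therefore also given without it. Xist, transcribed from the inactive X chromosome, was at 59.2 to 787 counts per M (CPM) in the 4 female libraries and at most 0.204 CPM in the 6 male libraries, as labelled. The Y-linked gene Ddx3y was at 48.8 to 65.5 CPM in the male libraries and at 0 in the female ones.

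Levels below are CPM scaled by TMM (trimmed mean of M values), which assumes that most genes do not differ between libraries. Differences are log2, synaptic minus nuclear, from edgeR's quasi-likelihood test with the animal as a block, and "higher" means a Benjamini-Hochberg adjusted p under 0.05 over all tested genes. Of 18914 genes, 6521 were higher in the synaptic fraction (34.5%) and 7277 in the nuclear fraction (38.5%). The scaling decides this split. With library totals alone every difference fell by about 0.61, and 2559 genes were higher in the synaptic fraction (13.5%) against 10747 in the nuclear fraction (56.8%), so that synaptic calls were 19.2% of all calls in place of 47.3%. List medians whose sign changes with that scaling are marked below. Of the genes named below as higher in the synaptic fraction, Camk2a (0.37), Dlg4 (0.16), Shank1 (0.05), Shank3 (0.29), Arc (0.13), Gabrd (0.29), Smarca2 (0.26), Chd3 (0.11), Rpl4 (0.06) and Cx3cr1 (0.52) did not pass with library totals. Among those named as not passing, Gria2 (−0.59), Shank2 (−0.52), Cabp1 (−0.93) and Pvt1 (−0.76) were higher in the nuclear fraction there.

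The sizes of the differences were unequal in the 2 directions. At least 2-fold differences were called for 2514 genes in the synaptic fraction (13.3%) and for 5152 in the nuclear fraction (27.2%). At least 4-fold differences were called for 156 and 2915 genes, and at least 16-fold differences for 0 and 856. All 5 synaptic libraries lay above all 5 nuclear libraries in 5102 genes and the reverse held in 6120 (together 59.3%). Of the genes called, 6008 of 6521 were higher in the synaptic library of all 5 pairs, and 6925 of 7277 were higher in the nuclear library of all 5.

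**Figure D1:**
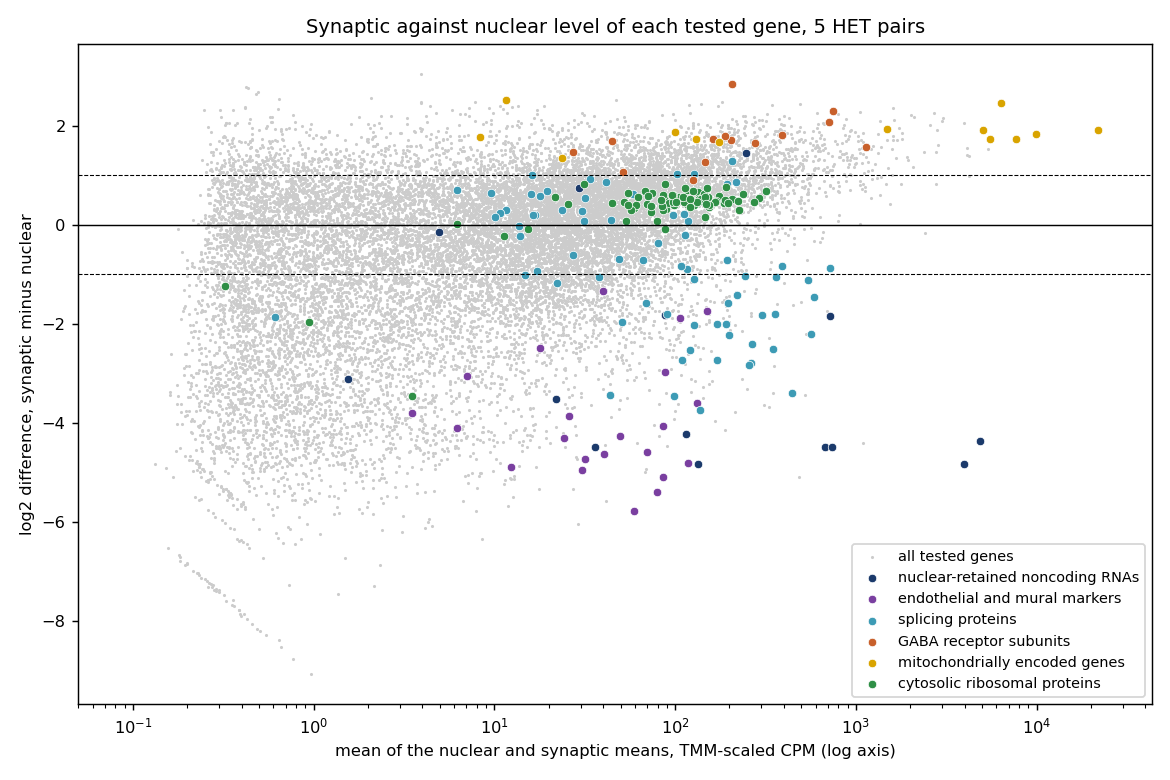
Log2 difference (synaptic minus nuclear) of each tested gene against its mean level in TMM-scaled CPM on a log axis; grey points are tested genes, 1 per symbol, coloured points are members of 6 lists, and dashed lines mark 2-fold differences. Grey points reach much further below 0 than above it, the 13 mitochondrially encoded genes lie at 1.34 to 2.52, and endothelial and mural markers lie at −5.77 to −1.34.

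The 6 HET libraries without a partner were not used in these tests. Among the 2514 genes at least 2-fold higher in the synaptic fraction, both unpaired synaptic libraries lay above all 4 unpaired nuclear libraries in 2244 (89.3%, against 31.2% of all tested genes). Among the 5152 genes at least 2-fold higher in the nuclear fraction, all 4 nuclear libraries lay above both synaptic ones in 4624 (89.8%, against 36.5%). Among these nuclear libraries, that of HET female replicate 4 had Xist at 0.355 CPM, against its female label. Its Ddx3y was at 0, as in the other female libraries. Without it the shares were 90.1% (against 32.6%) and 92.3% (against 38.6%).

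Chd8 itself (ENSMUSG00000053754, chromosome 14, 52198151 to 52257780, minus strand, GRCm38) was lower in the synaptic fraction. Its nuclear levels were 92.9 and 76 CPM in females (replicates 1 and 3) and 109, 105 and 119 CPM in males (replicates 1 to 3). Its synaptic levels were 47 and 31.1 CPM in females and 41.1, 43.5 and 43.5 CPM in males. All 5 nuclear values lay above all 5 synaptic values, and the log2 difference was −1.28 (SE 0.10, edgeR adjusted p = 1.45e-06, higher in the nuclear library of 5 of 5 pairs). An exact two-sided sign permutation over the 5 pairs gave p = 0.0625, the smallest it can give. The annotation has 1 gene that overlaps Chd8 exons on the opposite strand. Whether the counting used strand is not stated in the labels used here, and 94 of the 208 genes that the naming rule allows share exon bases with another annotated gene, 65 of them on the opposite strand.

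In WT the same difference was −0.63 in the 7 pairs left after the exclusions given next, and the difference between genotypes was tested over all genes. With all 10 WT pairs as labelled, 0 of 21515 genes (0.00%) had a compartment difference that differed between HET and WT by edgeR, with 1552 at an unadjusted p under 0.05 (7.21%). DESeq2 also called 0, with 2278 at an unadjusted p under 0.05 (10.6%). By edgeR, leaving out 1 HET pair at a time gave shares of 3.18 to 12.2% at that p. In 3 WT pairs a library went against its label. The synaptic libraries of WT male replicates 1 and 2 held 3.23 and 3.39% of counts in nuclear-retained RNAs, against 0.154 to 0.374% in the other 8 WT synaptic libraries, and 1 pair labelled male had 547 CPM of Xist in the nuclear and 2.61 CPM in the synaptic library. Without these 3 pairs the count was 0 of 20918 (0.00%), with 2162 at an unadjusted p under 0.05 (10.3%). For Chd8 the interaction was −0.95 (SE 0.245, edgeR adjusted p = 0.588) with all pairs and −0.68 (SE 0.137, edgeR adjusted p = 0.4) without those 3. The values below are thus values of HET cortex, and none of them passed as particular to the genotype.

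**Figure D2:**
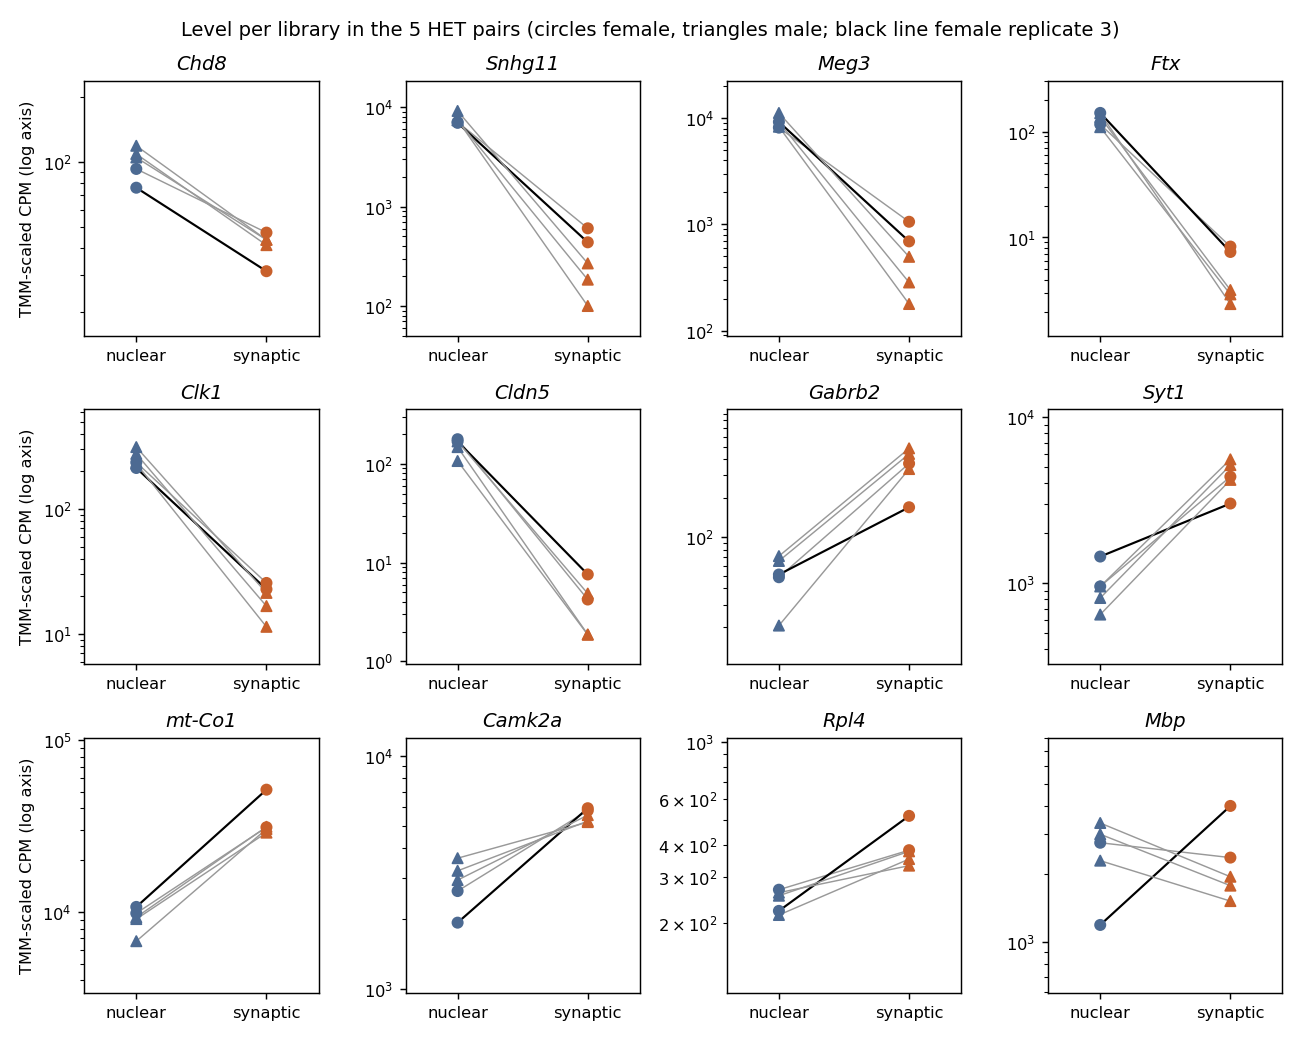
TMM-scaled CPM (log axes, each panel with its own range) of 12 genes in the nuclear and synaptic library of each HET animal; circles are females, triangles males, lines join the libraries of 1 animal, and the black line is female replicate 3. The fractions do not overlap in 11 of the 12 genes, while Mbp is higher in the synaptic library of female replicate 3 alone, at 4009 against 1191 CPM, and lower in that of the other 4 pairs.

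The nuclear fraction was marked by long noncoding RNAs. Of 14 tested members of a list of RNAs known to stay in the nucleus, 11 were higher in the nuclear and 2 in the synaptic fraction. Their median was −3.87 against −0.04 over all tested genes, of which 38.5% were higher in the nuclear and 34.5% in the synaptic fraction. Xist and Tsix did not pass the filter on low counts. Snhg11 (chromosome 2, 158375638 to 158386145), a brain-enriched host of small nucleolar RNAs that the annotation types as protein-coding, held 7080 and 6935 CPM in the female and 7396, 7349 and 9128 CPM in the male nuclear libraries. Its synaptic libraries held 604 and 437 CPM in females and 100, 184 and 268 CPM in males. The groups did not overlap and the log2 difference was −4.83 (SE 0.38, edgeR adjusted p = 1.3e-06).

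Meg3, an imprinted noncoding RNA of the Dlk1-Dio3 region, held 8149, 9227, 8307, 9194 and 11196 CPM in the nuclear libraries in the same order. Its synaptic levels were 1059, 692, 178, 284 and 494.8 CPM, and the difference was −4.36 (SE 0.37, edgeR adjusted p = 1.98e-06). Malat1, which associates with nuclear speckles, held 1003, 1119, 2248, 1037 and 1028 CPM in the nuclear and 109, 108, 23.1, 25.8 and 58 CPM in the synaptic libraries (−4.49, SE 0.47, edgeR adjusted p = 8.48e-06). In all 3 genes both female synaptic libraries held more than any male synaptic library, and the nuclear libraries did not show that order. Neat1, the scaffold of paraspeckles, was at −4.83, Miat at −4.49, Firre at −4.23, Kcnq1ot1 at −3.51 and Rmst at −3.11. Rian and Snhg14 differed less, at −1.85 and −1.82. On their own strand Rian shares exon bases with 9 annotated genes, Miat with 4 and Meg3 with 3, so their values are uncertain too.

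The share of all counts that the nuclear-retained list took gives the same order across animals. It was 2.41 to 3.17% in the nuclear libraries, 0.235 and 0.181% in the female synaptic libraries and 0.086, 0.101 and 0.136% in the male ones. Xist, at 104 and 59.2 CPM in the female synaptic libraries, is part of this share. The 2 female pairs have batch labels of their own and the 3 male pairs share 2 others, so sex and batch cannot be told apart here. All long noncoding gene types together took 3.52 ± 0.27% of nuclear and 0.676 ± 0.0906% of synaptic counts (SD, n = 5 each), lower in the synaptic library of 5 of 5 pairs (exact sign permutation p = 0.0625).

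Within the same list Peg13 went the other way. This imprinted noncoding RNA held 149, 125, 138, 143 and 113 CPM in the nuclear against 354, 319, 402, 363 and 368 CPM in the synaptic libraries. The groups did not overlap (1.44, SE 0.12, edgeR adjusted p = 1.41e-06), and the difference was 0.83 with library totals. Pantr1 was at 0.74 (edgeR adjusted p = 5.17e-05), a call that library totals ended (0.14), and Pvt1 did not pass at −0.15 (edgeR adjusted p = 0.442). The median of 13 noncoding RNAs known to be exported was −0.95. Of these, 9 were higher in the nuclear fraction (38.5% of all genes were) and 1 in the synaptic fraction (34.5% were). The latter was 2900097C17Rik (1.03), and Gas5 and Zfas1, hosts of small nucleolar RNAs, were at −0.95 and −1.44 (both chosen after their values were seen).

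Gene type separated the genes across the whole table. Protein-coding genes had a median of 0.09 (14929 tested; 6031 higher in the synaptic and 5124 in the nuclear fraction), which library totals turned to −0.52. The median was −1.53 for 771 lincRNAs, −1.98 for 743 antisense genes, −3.14 for 576 genes of the type TEC (to be experimentally checked), −3.44 for 66 sense intronic genes and −4.71 for 47 snoRNA genes. Of the snoRNA genes 44 were higher in the nuclear fraction (93.6%, against 38.5% of all genes). The filter on low counts can be met by the libraries of 1 fraction alone. Genes of low level can thus enter the test through the nuclear fraction only. This limits the values for these types and for the noncoding microRNA hosts below, and its part was not tested. Processed pseudogenes, copies made from spliced mRNA, had a median of 0.53 (1020 tested), which library totals turned to −0.07.

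Place in the genome went with these values. The 407 long noncoding genes that overlap a protein-coding gene on its own strand had a median of −3.54, and 359 were higher in the nuclear fraction (88.2%). The median was −1.89 for the 1117 that overlap one on the opposite strand only (65.5% higher in the nuclear fraction) and −1.53 for the 1073 that overlap none (61.5%). Reads from introns of the coding gene could be counted for the genes of the first group, which was not tested.

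Noncoding transcripts that carry microRNA hairpins were also more abundant in the nuclear fraction. A microRNA is cut from its host transcript, first in the nucleus and then in the cytoplasm, and pairs with target mRNAs through its seed, bases 2 to 8. Poly(A) libraries measure the host, not the mature microRNA. RefSeq hairpins (GRCm38.p6) lay inside 49 tested noncoding genes on the same strand, a set chosen after values were seen, and 40 of these were higher in the nuclear and 0 in the synaptic fraction (median −2.70). The 504 protein-coding hosts had a median of 0.19 (223 higher in the synaptic, 167 in the nuclear fraction; −0.42 with library totals). Of the 2551 long noncoding genes without a hairpin, 1713 were higher in the nuclear and 129 in the synaptic fraction (median −1.96), and the difference from the hosts was not tested. The mature sequences below, credited to RefSeq, show which regulatory RNAs these nuclear hosts encode, grouped by seed, with the seed in capitals, written 5′ to 3′.

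mmu-let-7a-5p (host 6720427I07Rik, −4.32): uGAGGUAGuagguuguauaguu
mmu-let-7f-5p (host 6720427I07Rik, −4.32): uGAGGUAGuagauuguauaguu
mmu-let-7d-5p (host 6720427I07Rik, −4.32): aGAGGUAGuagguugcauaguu
mmu-miR-29b-3p (host A330023F24Rik, −4.47): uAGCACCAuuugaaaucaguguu
mmu-miR-29c-3p (host A330023F24Rik, −4.47): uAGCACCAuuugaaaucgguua
mmu-miR-132-3p (host 1700016P03Rik, −3.61): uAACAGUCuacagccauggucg
mmu-miR-212-3p (host 1700016P03Rik, −3.61): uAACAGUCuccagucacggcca
mmu-miR-138-5p (hosts C78859, −4.40, and Gm47135, −5.08): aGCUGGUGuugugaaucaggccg
mmu-miR-9-5p (hosts Gm3764, −4.15, C130071C03Rik, −1.70, and Mir9-3hg, −1.51): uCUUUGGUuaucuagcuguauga
mmu-miR-100-5p (host 3110039I08Rik, −3.77): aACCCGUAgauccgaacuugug
mmu-miR-125b-5p (host 3110039I08Rik, −3.77): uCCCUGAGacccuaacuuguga
mmu-miR-134-5p (host Mirg, −4.49): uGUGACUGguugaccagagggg

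The same mature microRNA can thus come from hosts that differed in size of the compartment difference. The brain-enriched miR-9-5p is encoded at 3 loci with 1 mature sequence. Its host Gm3764 (chromosome 3, 88206813 to 88229959) held 363, 364, 399, 282 and 379 CPM in the nuclear and 30.4, 36, 10.4, 13.4 and 20.5 CPM in the synaptic libraries, a 17.7-fold difference (log2 SE 0.26, edgeR adjusted p = 2.84e-07). Its host C130071C03Rik (chromosome 13, 83721381 to 83884194) held 86.4, 126, 101, 107 and 85.7 CPM against 32.9, 32.8, 26.9, 31.6 and 30.2 CPM, a 3.25-fold difference (log2 SE 0.11, edgeR adjusted p = 4.34e-07). Mir9-3hg (chromosome 7, 79500026 to 79534403) differed 2.84-fold. In all 3 hosts the fractions did not overlap; the difference between hosts was not tested.

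The host of miR-132 and miR-212, whose expression follows neuronal activity, varied widely between animals. This gene, 1700016P03Rik, held 39.5, 16.2, 96.3, 49.7 and 28.3 CPM in the nuclear libraries and 4.26, 2.91, 2.57, 3.57 and 2.93 CPM in the synaptic libraries (−3.61, SE 0.31, edgeR adjusted p = 2.37e-06). Its nuclear level was highest in male replicate 1 and lowest in female replicate 3, as was that of Arc, an activity-induced gene, at 778 and 74.8 CPM. Junb had the same extremes, but Egr1 was highest in female replicate 1, at 354.9 against 319.9 CPM in male replicate 1. The miR-29 host A330023F24Rik also had these extremes, at 267.5 and 118.8 CPM. A link of this order to activity was not tested. Ftx, which hosts miR-374b and miR-421 near Xist on the X chromosome, held 117, 150, 149, 110 and 137 CPM against 8.21, 7.3, 2.35, 2.9 and 3.19 CPM (−4.94, SE 0.29, edgeR adjusted p = 1.85e-07).

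mRNAs of splicing proteins were called in both directions. Of 76 genes of the spliceosome and of SR and hnRNP proteins, 42 were higher in the nuclear and 20 in the synaptic fraction (median −0.71). With library totals the counts were 56 and 5 (median −1.32). Over all tested genes the shares were 38.5% nuclear and 34.5% synaptic with TMM scaling. The kinase gene Clk1, whose product phosphorylates SR proteins, had the lowest value. It held 236, 213, 276, 231 and 313 CPM in the nuclear and 25.6, 22.8, 16.7, 11.4 and 21.3 CPM in the synaptic libraries, with no overlap (−3.74, SE 0.19, edgeR adjusted p = 1.07e-07). Its paralogue Clk4 was at −3.46, and the helicase genes Ddx17 and Ddx5 at −2.20 and −0.87 (Clk4 and Ddx17 were chosen after their values were seen). Srrm2, a core protein of nuclear speckles, was at 873 ± 253 CPM in the nuclear and 307 ± 42.6 CPM in the synaptic fraction (SD, n = 5; −1.46, SE 0.14). Prpf8, the central protein of the spliceosome, went the other way, at 131, 95.3, 126, 143 and 101 CPM against 258, 191, 346, 372 and 314.3 CPM (1.29, SE 0.13, edgeR adjusted p = 5.93e-06).

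Genes of chromatin proteins showed a smaller median, −0.23, with 32 of 69 higher in the nuclear and 19 in the synaptic fraction. Over all tested genes the shares were 38.5 and 34.5%. With library totals 56 of the chromatin genes were higher in the nuclear and 0 in the synaptic fraction. Their median was then −0.84, against −0.65 over all genes. Tet2, an enzyme that oxidises methylated cytosine, was at 145 ± 24.4 CPM in the nuclear and 18.9 ± 3.6 CPM in the synaptic fraction (SD, n = 5; −2.94, SE 0.15). Smarca2, an ATPase of BAF remodelling complexes, was at 196 ± 27.7 and 356 ± 21.3 CPM (0.87, SE 0.12), and Chd3 of the NuRD complex was higher in the synaptic fraction at 0.72. Zinc finger genes with a Zfp number were higher in the nuclear fraction in 194 of 333 cases (38.5% of all genes were). In the synaptic fraction 41 were higher (34.5% of all genes were), and the median was −0.62. With library totals 274 were higher in the nuclear and 2 in the synaptic fraction (median −1.23). Zfp445, an imprinting regulator, held 448, 511, 642, 558 and 589 CPM against 125, 98.5, 105, 117 and 119 CPM (−2.28, SE 0.14, edgeR adjusted p = 2.17e-07). Zfp365 was the highest member at 1.17 (SE 0.17).

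mRNAs of inhibitory receptors were higher in the synaptic fraction throughout the list. All 14 tested GABA receptor subunit genes were higher there (34.5% of all genes were), with a median of 1.69 (1.08 with library totals, 13 of 14 still called). Gabrb2 (chromosome 11, 42419757 to 42629028), a subunit of many synaptic GABA-A receptors, had the largest synaptic difference at 10 CPM or more. Its nuclear levels were 48.8, 51.2, 65.2, 71.1 and 20.6 CPM and its synaptic levels 371, 170, 440, 486 and 336 CPM (2.84, SE 0.26, edgeR adjusted p = 3.46e-06). The groups did not overlap, and the synaptic library of female replicate 3 was the lowest of the synaptic ones. The GABA-B subunit genes Gabbr2 and Gabbr1 were at 2.08 and 1.57. Gabrd, a subunit of extrasynaptic receptors, had the lowest value, 0.90 (SE 0.13).

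The pair of female replicate 3 differed in many genes of this list. In Gabra2, Gabra3, Gabra4, Gabra5 and Gabrg1 it had the smallest difference and lay far from the other 4. For Gabra5 the synaptic minus nuclear difference was 0.81 in that pair and 1.73 to 2.05 in the others, with nuclear levels of 18.4, 27.7, 19.6, 23.6 and 17.4 CPM and synaptic levels of 61.1, 48.4, 80.9, 78.7 and 72.2 CPM (1.68 over all pairs, SE 0.17, edgeR adjusted p = 6.26e-06). Its nuclear library was thus the highest and its synaptic library the lowest. Without that pair the median of the list was 1.90 and all 14 genes were called.

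Glutamate receptor genes were less uniform. Of 24 genes, 21 were higher in the synaptic fraction and 1 in the nuclear fraction (median 1.04), against 13 and 3 with library totals (median 0.43). All tested genes had shares of 34.5% synaptic and 38.5% nuclear, or 13.5 and 56.8% with library totals. Grin2b, an NMDA receptor subunit, was at 292 ± 102 and 872 ± 223 CPM (SD, n = 5; 1.61, SE 0.21), and the metabotropic receptor gene Grm8 was the highest at 1.84. Gria2, which sets the calcium permeability of AMPA receptors, held 911, 1034, 1153, 1160 and 950 CPM against 1111, 755, 1192, 1297 and 972 CPM. The fractions overlapped and the gene did not pass (0.02, SE 0.14, edgeR adjusted p = 0.925). Grik2, a kainate receptor subunit gene, was higher in the nuclear fraction at −0.53 (edgeR adjusted p = 0.0182), a call that was lost without male replicate 1 (−0.49, edgeR adjusted p = 0.0578).

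Presynaptic genes had 49 of 53 members higher in the synaptic fraction and 2 in the nuclear fraction (median 1.25). With library totals 39 and 5 were (median 0.64). Shares over all tested genes were 34.5% synaptic and 38.5% nuclear, or 13.5 and 56.8% with library totals. Syt1, the calcium sensor of fast transmitter release, held 953, 1443, 811, 952 and 644 CPM in the nuclear and 4382, 3016, 5144, 5573 and 4188 CPM in the synaptic libraries (2.25, SE 0.24, edgeR adjusted p = 1.06e-05). Syt2, a sensor found in fast inhibitory terminals, was at 43.5 ± 9.77 and 236 ± 56.6 CPM (SD, n = 5; 2.43, SE 0.22), and the vesicle protein gene Synpr at 42 ± 26.5 and 198 ± 45.8 CPM (2.41, SE 0.27). Slc17a7, the vesicular glutamate transporter of cortical excitatory neurons, was at 1.46. Unc13b, a vesicle priming factor, was an exception, with 139, 118, 131, 138 and 165 CPM in the nuclear against 53.4, 39.2, 50.1, 55.3 and 47.5 CPM in the synaptic libraries (−1.49, SE 0.11, edgeR adjusted p = 7.19e-07). The other was Bin1 at −0.55, chosen after its value was seen.

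Voltage-gated channel genes had 33 of 40 members higher in the synaptic and 2 in the nuclear fraction (median 1.14; 23 and 7 with library totals, median 0.53), from Cacna1d at −0.59 to Kcnh5 at 2.25. For all tested genes the shares were 34.5% synaptic and 38.5% nuclear, or 13.5 and 56.8% with library totals. Among the 12 largest synaptic differences at 10 CPM or more were also Cntnap2 (2.48, SE 0.21), an axonal neurexin relative, Ptprn2 (2.41, SE 0.21) of dense-core vesicles, and Serpini1 (2.44, SE 0.23), a secreted protease inhibitor of neurons. Cntnap2 held 33 to 68.5 CPM in the nuclear and 199 to 376 CPM in the synaptic libraries. The clustered protocadherin genes Pcdhgc5 (2.40) and Pcdhac2 (2.51) share exons with 25 and 13 annotated genes on their strand, and their values are uncertain. Gpr165 (2.40) and Slc9a7 (2.39), a sodium-proton exchanger gene, complete the group together with the mitochondrial genes mt-Nd5 and mt-Nd4l.

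mRNAs known from dendrites were higher in the synaptic fraction in 28 of 31 cases, and 0 were higher in the nuclear fraction (median 0.96). With library totals the median was 0.35, and 13 were higher in the synaptic and 5 in the nuclear fraction. With TMM scaling but without female replicate 3 the median was 0.83. Shares over all tested genes were 34.5% synaptic and 38.5% nuclear, or 13.5 and 56.8% with library totals. In the highest quintile of mean level of protein-coding genes, 73% were higher in the synaptic fraction, with a median of 0.74. The list was not matched for level. Camk2a, a kinase mRNA that is translated in dendrites, held 2628, 1924, 3208, 3634 and 2928 CPM in the nuclear and 5815, 5950, 5239, 5188 and 5557 CPM in the synaptic libraries (0.98, SE 0.19, edgeR adjusted p = 0.000656). The synaptic levels lay close together, whereas the nuclear levels varied by almost a factor of 2. Bdnf, a neurotrophin gene, held 16.3, 17.7, 23.2, 20.7 and 10.9 CPM against 63.9, 36.7, 97.6, 82.2 and 44.5 CPM (1.83, SE 0.15, edgeR adjusted p = 1.74e-06), and the potassium channel gene Kcnd2 had the largest difference of the list, 2.01 (SE 0.18).

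Scaffold genes of the postsynaptic density spread over the range of this list. Dlgap1 was at 1.31, Dlg4 at 0.77, Shank3 at 0.90 and Shank1 at 0.66. Shank2 did not pass (0.09, SE 0.11, edgeR adjusted p = 0.499). Cabp1, a calcium-binding protein gene, did not pass either at −0.32 (edgeR adjusted p = 0.118), but was higher in the nuclear fraction without female replicate 3 (−0.52, edgeR adjusted p = 0.000405). Baiap2 and Lrrc7 passed narrowly at 0.28 and 0.26 (edgeR adjusted p = 0.0472 and 0.0482). Baiap2 did not pass without female replicate 1 (0.32, edgeR adjusted p = 0.0633), male replicate 1 (0.22, adjusted p = 0.165) or male replicate 2 (0.26, adjusted p = 0.132). Lrrc7 did not pass without female replicate 1 (0.20, edgeR adjusted p = 0.192), male replicate 2 (0.25, adjusted p = 0.125) or male replicate 3 (0.25, adjusted p = 0.112). Both were higher in the nuclear fraction with library totals (−0.33 and −0.34).

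Motor and cytoskeleton genes had 28 of 32 members higher in the synaptic and 2 in the nuclear fraction (median 0.99; 22 and 3 with library totals). Shares over all tested genes were 34.5% synaptic and 38.5% nuclear, or 13.5 and 56.8% with library totals. Kif5a, a kinesin that carries axonal and dendritic cargo, held 2598, 1342, 2649, 2954 and 2434 CPM against 6289, 5932, 6145, 5432 and 6545 CPM (1.39, SE 0.20). Kif5c was the highest of the list at 1.59, with 2.24 in female replicate 3 and 1.26 to 1.54 in the other pairs. Dync1i2, a dynein intermediate chain gene, was at −1.45 (SE 0.12) and its paralogue Dync1i1 at 1.56 (the latter chosen after its value was seen). Neuropeptide and granin genes had 22 of 23 higher in the synaptic fraction (median 1.69; 21 with library totals), and all 23 without female replicate 3. Sst held 90.2, 150, 52.3, 54.8 and 63 CPM in the nuclear and 308.7, 331, 340, 332 and 334 CPM in the synaptic libraries (2.13, SE 0.21, edgeR adjusted p = 6.46e-06). The synaptic values of Sst differed by far less than the nuclear ones.

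Immediate early genes had 12 of 20 members higher in the synaptic and 3 in the nuclear fraction (median 0.49). With library totals 3 were higher in the synaptic and 7 in the nuclear fraction, and the median turned to −0.12. All tested genes had shares of 34.5% synaptic and 38.5% nuclear, or 13.5 and 56.8% with library totals. Arc held 402, 74.8, 778, 437 and 292 CPM in the nuclear and 451, 159, 1304, 662 and 621 CPM in the synaptic libraries. Every pair was higher in the synaptic library although the groups overlapped (0.74, SE 0.15, edgeR adjusted p = 0.00116), and without the animal as a block it did not pass (0.61, edgeR adjusted p = 0.185). Klf4 was the lowest at −4.44 (SE 0.21), with Npas4 at −0.94 and Nr4a1 at −0.91 (both chosen after their values were seen). Klf4 is also known from endothelium.

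Mitochondrial transcripts took a larger share of the synaptic than of the nuclear libraries. The 13 protein-coding genes of the mitochondrial genome took 3.13, 4.19, 2.01, 2.8 and 3.08% of nuclear counts and 6.72, 11.5, 6.32, 6.13 and 6.65% of synaptic counts. The synaptic library of female replicate 3 was the highest by far, and the share was larger in the synaptic library of 5 of 5 pairs (mean difference 4.43 percentage points, SD 1.67; exact sign permutation p = 0.0625, or 0.0769 after Benjamini-Hochberg adjustment over 16 classes). Without female replicate 3 the mean difference was 3.7 percentage points. All 13 genes were higher in the synaptic fraction, against 34.5% of all tested genes (median 1.83, and 1.78 without that pair). Per kb of exon mt-Co1, a subunit of cytochrome oxidase, had the most counts in both fractions, at 5908 CPM per kb in the nuclear and 22406 CPM per kb in the synaptic fraction. mt-Cytb and mt-Nd1 followed in both, at 3860 and 3743 CPM per kb in the nuclear and 13591 and 12355 CPM per kb in the synaptic fraction.

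**Figure D3:**
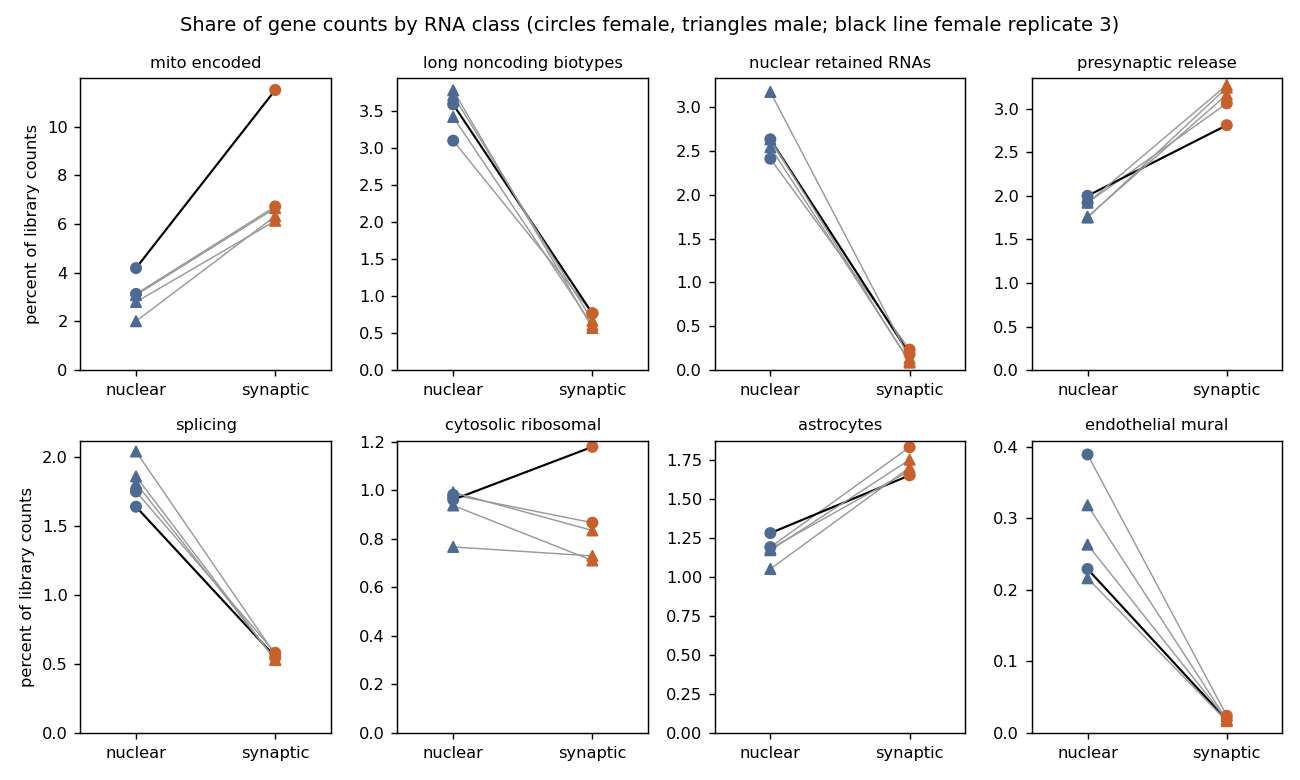
Percent of all gene counts of a library held by 8 classes of genes in the nuclear and synaptic library of each HET animal, on linear axes from 0; circles are females, triangles males, lines join 1 animal, and the black line is female replicate 3. The share of mitochondrially encoded genes lies at 6.13 to 11.5% in the synaptic libraries, all above the nuclear range of 2.01 to 4.19%, and the share of cytosolic ribosomal genes is lower in the synaptic library of 4 pairs and higher in that of female replicate 3.

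Nuclear-encoded subunits of oxidative phosphorylation had 73 of 79 members higher in the synaptic and 3 in the nuclear fraction (median 0.79). With library totals 29 were higher in the synaptic and 7 in the nuclear fraction (median 0.18). With TMM scaling but without female replicate 3 the median was 0.72. Shares over all tested genes were 34.5% synaptic and 38.5% nuclear, or 13.5 and 56.8% with library totals. The highest quintile of mean level of protein-coding genes had a median of 0.74, and the lists were not matched for level. Atp5b and Atp5a1, the beta and alpha subunits of ATP synthase, were at 1.07 and 1.14. Ndufa4l2 was the lowest at −4.18 (SE 0.25), at 9.21 ± 2.05 CPM in the nuclear and 0.54 ± 0.299 CPM in the synaptic fraction (SD, n = 5), and this gene is known from pericytes. Glycolytic enzymes had 14 of 16 higher in the synaptic fraction (median 1.22; 12 synaptic and 2 nuclear with library totals), among them Gapdh at 1.36, whereas Pfkp was at −0.50. The secretory pathway list had 21 of 23 higher in the synaptic fraction (median 1.31; 16 synaptic and 2 nuclear with library totals), led by the chaperone gene Canx at 1.71.

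Genes of the translation machinery had smaller differences that depend on the scaling. Of 81 cytosolic ribosomal protein genes 70 were higher in the synaptic and 2 in the nuclear fraction (median 0.48), but with library totals the median was −0.13, with 0 higher in the synaptic and 15 in the nuclear fraction. As a share of counts they took 0.982, 0.962, 0.767, 0.938 and 0.992% in the nuclear and 0.867, 1.18, 0.73, 0.711 and 0.835% in the synaptic libraries, lower in 4 of 5 pairs and higher in female replicate 3 (exact sign permutation p = 0.438). Rpl4 was at 0.67 (SE 0.14). Rps10 was at −3.45 with 6.38 ± 0.647 CPM in the nuclear fraction (SD, n = 5), far below the 244 ± 24.2 CPM of Rpl4, and near-identical copies of ribosomal genes can take their reads, so its value is uncertain. Mitochondrial ribosomal genes had 36 of 76 higher in the synaptic and 11 in the nuclear fraction (median 0.30, −0.31 with library totals). Of all tested genes, 34.5% were higher in the synaptic and 38.5% in the nuclear fraction. By library totals those shares were 13.5 and 56.8%. Proteasome genes had 26 and 3 of 38 (median 0.54, −0.07 with library totals). Translation factors had 47 and 7 of 60 (median 0.61, 0.00 with library totals), with Eif1ax the highest at 1.48.

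**Figure D4:**
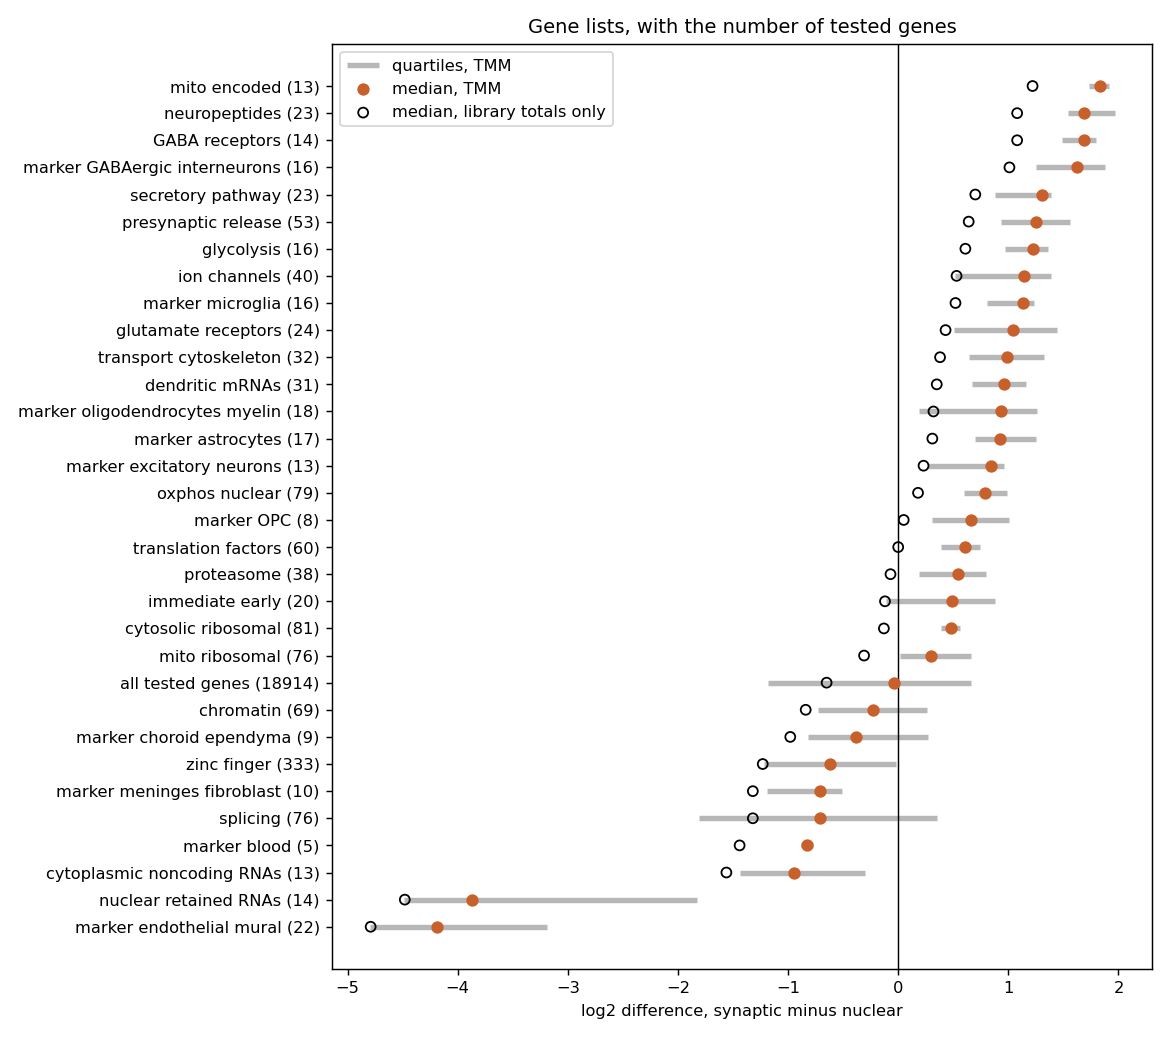
Median log2 difference (synaptic minus nuclear) of 31 gene lists and of all tested genes, with the number of tested genes in brackets; filled points are medians and grey bars quartiles with TMM scaling, open circles medians with library totals only. Open circles lie about 0.61 to the left, and the medians of the proteasome, immediate early, cytosolic ribosomal and mitochondrial ribosomal lists pass from above to below 0.

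Markers of blood vessels were found on the nuclear side. All 22 tested endothelial and mural markers were higher in the nuclear fraction (median −4.19), against 38.5% of all genes, and Ly6c1 and Cldn5 of this list were among the 12 largest nuclear differences at 10 CPM or more. Cldn5, a tight junction protein of brain endothelium, held 178, 169, 148, 107 and 169 CPM in the nuclear and 4.23, 7.59, 1.87, 1.86 and 4.86 CPM in the synaptic libraries, a 42.0-fold difference (log2 SE 0.24, edgeR adjusted p = 6.67e-08). The transcription factor gene Gata2, which is not on the list, had the largest nuclear difference at that level, −6.34 (SE 0.37), with 3335 counts over the nuclear and 34 over the synaptic libraries, of which 1 had 0. Adgrl4 was at −6.05, Ly6c1 at −5.77, Tie1 at −5.33 and the pericyte gene Rgs5 at −3.60. The receptor gene Pdgfrb of mural cells was the highest of the list at −1.34 (SE 0.12).

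As a share of all counts the vascular list took 0.389, 0.229, 0.318, 0.216 and 0.263% of the nuclear and 0.0239, 0.018, 0.0182, 0.0164 and 0.0185% of the synaptic libraries, lower in 5 of 5 pairs (exact sign permutation p = 0.0625). None of the 22 markers was at 0 in any library; the lowest count was 136 in the nuclear and 8 in the synaptic libraries. The part of vascular transcripts in the other nuclear differences was not tested. Rtl1, a gene of the Dlk1-Dio3 region at −5.33 (SE 0.39), shares exon bases with 6 annotated genes on the opposite strand, and its value is uncertain. Blood markers were also higher in the nuclear fraction (4 of 5, median −0.83), as were 8 of 10 meningeal markers (median −0.71), among them Mgp at −2.32. All tested genes had a nuclear share of 38.5%.

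Markers of neurons and of the other glia were called more often as synaptic than as nuclear with TMM scaling. With library totals fewer were called as synaptic, and precursor markers were called equally in both directions. Over all tested genes 13.5% were then higher in the synaptic and 56.8% in the nuclear fraction, with a median of −0.65. With TMM scaling those shares were 34.5 and 38.5%. The numbers higher in the synaptic fraction were 9 of 13 for excitatory neurons (median 0.84), 14 of 16 for GABAergic interneurons (1.62), 14 of 17 for astrocytes (0.92), 13 of 18 for oligodendrocytes (0.93), 6 of 8 for their precursors (0.66) and 15 of 16 for microglia (1.13). With library totals these medians were 0.05 to 1.01, and the calls were 5 synaptic and 4 nuclear for excitatory neurons, 12 and 2 for interneurons, 8 and 3 for astrocytes, 9 and 4 for oligodendrocytes, 2 and 2 for their precursors and 8 and 0 for microglia. Astrocyte markers took 1.17 ± 0.082% of nuclear and 1.72 ± 0.073% of synaptic counts (SD, n = 5 each; larger in the synaptic library of 5 of 5 pairs, exact sign permutation p = 0.0625). Oligodendrocyte markers took 0.663 ± 0.0903% and 0.635 ± 0.0651%, larger in the synaptic library of 1 of 5 pairs (exact sign permutation p = 0.625), and microglial markers 0.0533 ± 0.0201% and 0.0705 ± 0.00834%, larger in 4 of 5 (exact sign permutation p = 0.25). Slc1a2, the main glutamate transporter of astrocytes, held 2021, 2148, 2307, 2639 and 2202 CPM in the nuclear and 6184, 5156, 6287, 6326 and 6084 CPM in the synaptic libraries (1.41, SE 0.15, edgeR adjusted p = 1.01e-05). The interneuron marker Lamp5 was at 1.86 and the microglial receptor gene Cx3cr1 at 1.13.

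Myelin genes were not uniform. Ugt8a, an enzyme of galactolipid synthesis, held 29.9, 42.5, 32.5, 33.3 and 22 CPM in the nuclear and 82.3, 58.2, 109, 115 and 113 CPM in the synaptic libraries (1.57, SE 0.22, edgeR adjusted p = 6.11e-05). Its fractions did not overlap, and Gjc3, a connexin gene, was the lowest of the list at −0.71. Mbp, whose mRNA is carried out into oligodendrocyte processes, held 2754, 1191, 3004, 2294 and 3368 CPM against 2367, 4009, 1778, 1519 and 1947 CPM and did not pass (−0.17, SE 0.33, edgeR adjusted p = 0.662). Without female replicate 3 it was higher in the nuclear fraction (−0.59, edgeR adjusted p = 0.000353). The microglial gene Trem2 (0.31) and the meningeal and oligodendrocyte gene Ptgds (0.33) did not pass with all pairs and did without that pair, at 0.50 and 0.60 (edgeR adjusted p = 0.00227 and 8.84e-05). Choroid plexus and ependymal markers had 1 of 9 higher in the synaptic fraction and 2 in the nuclear fraction. Shares over all tested genes were 34.5% synaptic and 38.5% nuclear. The synaptic one was Ttr (1.72), at 0.897 ± 0.463 CPM in the nuclear and 3.06 ± 1.64 CPM in the synaptic fraction (SD, n = 5).

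Structural features of protein-coding genes went with the difference to a smaller degree than gene type. They are given as medians by quintiles of the 14911 coding genes with an annotated coding transcript, as a description across genes, which are not independent. From the shortest to the longest quintile of 3′UTR length (medians of 139 and 3386 bases) the median difference went from −0.14 to 0.31, and the share higher in the synaptic fraction from 31.8 to 50%. With library totals the medians went from −0.75 to −0.30, and every quintile median of the features given here was below 0 except that of the highest level (0.13). Coding length showed the opposite order, from 0.37 in the shortest to −0.07 in the longest quintile, as did the number of exon blocks (0.40 to −0.05). Genomic span had its highest medians at both ends (0.18 and 0.35). GC content of the transcript showed little order (0.07, 0.16, 0.10, 0.12 and 0.03). Level also went with the difference: the median difference was −0.73 in the lowest quintile of mean CPM and 0.74 in the highest. The share higher in the synaptic fraction was 10.8% in the lowest and 73% in the highest quintile. The list counts above are set beside all tested genes and were not matched for level. The median level also rose with 3′UTR length from 12.5 to 41.6 CPM.

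**Figure D5:**
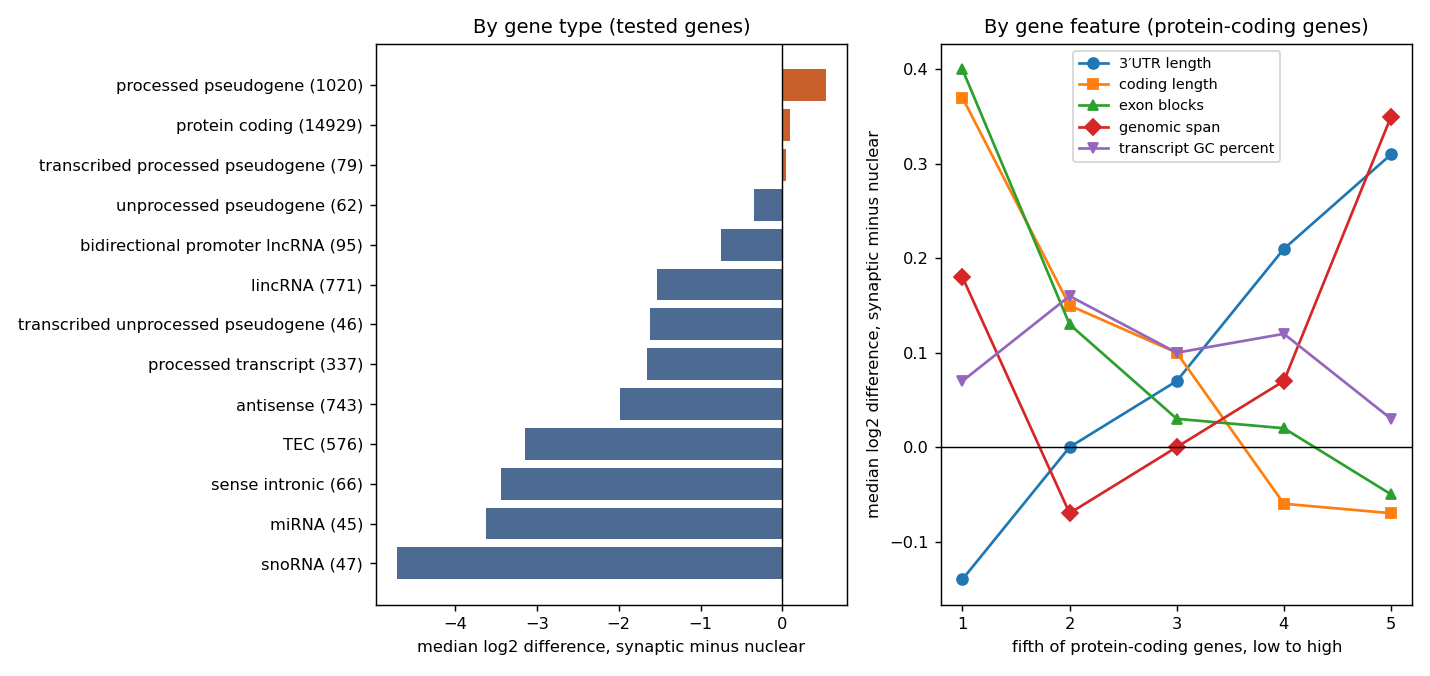
Median log2 difference (synaptic minus nuclear) by gene type, with the number of tested genes in brackets, and by quintiles of 5 features of protein-coding genes from low to high. Bars run from −4.71 for snoRNA genes to 0.53 for processed pseudogenes, the line for 3′UTR length rises from −0.14 to 0.31, and those for coding length and exon blocks fall.

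Short motifs near the end of the 3′UTR were counted in both directions, with no test of the difference. In the last 300 bases of the 3′UTRs of 11710 coding genes, searched on the transcript strand only, the Pumilio motif TGTANATA occurred in 10.4% of all genes, in 10.2% of the 1916 at least 2-fold higher in the synaptic fraction and in 9.6% of the 2218 at least 2-fold higher in the nuclear fraction. The AU-rich element core ATTTA occurred in 44.4, 48 and 43.5%, the cytoplasmic polyadenylation element TTTTAT in 29.6, 30.4 and 30.2%, and AGCCC in 24.5, 22.2 and 24.3%. The core ATTTA can overlap the other A and T rich motifs. A match is not a bound site, and other parts of the UTR were not searched.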

How the data were processed

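Gene counts of poly(A) RNA-seq libraries of synaptic and nuclear fractions were used. The deposited counts are whole-number counts per gene, made by the authors with STAR 2.5.4b and featureCounts 2.0.0 on GRCm38/mm10, per the submitters' processing notes. Their values are raw and were not normalized; 60.8 to 73.5% of counts between 10 and 200 in a library were even, so mates of a pair may have been counted separately, and strand settings are not given in the sources used here. Symbols, gene types and coordinates came from GENCODE M21 (GRCm38), with 54809 of 54838 rows matched, and microRNA sequences from RefSeq.

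HET pairs were fitted with edgeR 4.0.16 in R 4.3.3 (filterByExpr, TMM, quasi-likelihood F test, animal as block, Benjamini-Hochberg adjustment at 0.05). Pairs come from the animal number in the library names. Deviations of the 2 libraries of an animal from the means of their fraction and sex correlated at 0.06 in both females. In the 3 males they correlated at 0.11, 0.31 and 0.38. With 2 females the female values are equal by construction, and the male values are not independent of each other. Each pair is 1 animal, so errors are those between 5 animals. Levels are CPM scaled by TMM factors, which were 1.22 to 1.24 in nuclear and 0.783 to 0.828 in synaptic libraries. Class shares were tested by an exact two-sided sign permutation over 5 pairs, which cannot go below 0.0625. Libraries of 1 fraction differed beyond counting noise (chi-square per degree of freedom of at least 11.9). The fit was also run on simulated counts with few changed genes, as many raised as lowered and without animal effects. That run cannot test the scaling used here.

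Members, gene lists and tests were chosen with earlier results of these data known. Named were Chd8, the 12 largest differences each way at a mean of 10 CPM or more by library totals with an ordinary symbol, in each list the highest and lowest member and the 2 most abundant, every member of the nuclear-retained and dendritic lists, and the 5 genes with the most counts per kb in each fraction; microRNA hosts and other genes said to be so were chosen after their values were seen. The alternatives were RLE factors, library totals, TMM without mitochondrial genes, DESeq2 1.42.0, limma 3.58.1 (voom), other filters, no block, each pair left out, one sex only, a fit shared with WT, and, added after seeing the data, all HET libraries. A few genes are not reported here.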

Additional observations from a re-analysis of the deposited data

Results flagged for a closer look

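Some differences within a pair, or shares of counts, lay far from those of the other 4 animals: the gap to the nearest was over 0.71 of the range. Chance marks about 1 in 20 groups, and 240 were tested. Differences are synaptic minus nuclear on the log2 scale, and the range of the other 4 pairs is given in brackets.

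HET female replicate 3 was the distant pair in most of them. Among GABA receptor subunits it had 0.84 for Gabra2 (1.78 to 2.04), 1.10 for Gabra3 (1.87 to 2.08), 0.83 for Gabra4 (1.83 to 2.05), 0.81 for Gabra5 (1.73 to 2.05) and 0.57 for Gabrg1 (1.60 to 1.84). It was also low for Bdnf at 1.05 (1.97 to 2.07), the glutamate receptor gene Grm8 at 0.56 (1.99 to 2.46), the sodium channel gene Scn8a at 0.42 (1.14 to 1.35), Canx at 0.76 (1.74 to 2.07), Lamp5 at 1.00 (1.91 to 2.14) and Ptgds at −0.74 (0.33 to 0.74). It was high for Psd at 1.47 (0.27 to 0.59), Chd5 at 0.92 (0.34 to 0.49), Kif5c at 2.24 (1.26 to 1.54), Mbp at 1.75 (−0.79 to −0.22) and the noncoding gene Gm6145 at −1.33 (−2.23 to −2.02).

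The synaptic library of the same animal held 11.5% of counts in mitochondrially encoded genes (6.13 to 6.72% in the others), 0.934% in nuclear genes of oxidative phosphorylation (0.639 to 0.717%), 0.242% in GABAergic interneuron markers (0.308 to 0.331%) and 96.8% in protein-coding genes (97.8 to 98.1%). In male replicate 1 the difference was 1.54 for Rgs4 (1.18 to 1.26), −0.16 for Lrrc7 (0.34 to 0.44) and 1.71 for Ndufc2 (1.18 to 1.32), and its nuclear library held 0.767% in cytosolic ribosomal genes (0.938 to 0.992%). Male replicate 3 had −1.83 for Dync1i2 (−1.43 to −1.27). The synaptic library of female replicate 1 held 0.0239% in endothelial and mural markers (0.0164 to 0.0185%).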

How the results depend on the processing

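Counts of called genes depended most on scaling and filter. With library totals only, 2559 genes were higher in the synaptic fraction and 536 at least 2-fold so. With a mean of at least 10 CPM (10274 genes tested) the counts were 3861 synaptic and 4005 nuclear, with 969 and 2043 at least 2-fold. Fewer genes were tested there, and TMM scaling over those genes moved all differences by a median of −0.29 (Chd8 −1.57). Females only gave 4167 synaptic genes (2 pairs), and a test against a 2-fold change (glmTreat) 1266; these rest on fewer animals and on a stricter hypothesis. Leaving out 1 pair at a time gave 5964 to 6560 synaptic and 6712 to 7458 nuclear genes, 2278 to 2640 and 4852 to 5275 at least 2-fold, and −1.38 to −1.23 for Chd8. Chd8 stayed higher in the nuclear fraction in all settings run, from −1.89 to −1.12. Without the replicate block the counts were 6530, 7378, 2507 and 5190, with −1.27 for Chd8, and 0 genes passed the test of the difference between genotypes, as in every other setting of that test; of the named genes, the block ended or made the call only for Arc, Lrrc7 and Mrpl3.

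Without mitochondrially encoded genes in the denominator, the mean synaptic minus nuclear difference in share was 0.00963 percentage points for oligodendrocyte markers (−0.0277 with them), 0.667 for astrocyte markers (0.549) and 2.97 for protein-coding genes (2.36). Over 3490 values of named genes in alternative settings, 3373 were counted as unchanged, 77 lost and 38 gained a call. Genes without a call in the main fit whose sign turned were also counted as unchanged. Gria2 and Shank2, called as nuclear with library totals, are among them. The sign turned in at least 1 alternative for 18 named genes. Only Baiap2 (−0.33) and Lrrc7 (−0.34) changed direction as called genes, both with library totals; the cause was not tested. Without female replicate 3, the genes that gained a call included Tug1 (0.41), Cabp1 (−0.52), Mrpl3 (−0.22), Mbp (−0.59), Trem2 (0.50), Alas2 (−0.82) and Ptgds (0.60), and no named gene lost one. Low levels limit Gata2, with 34 synaptic counts in all.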
